A study of Homo sapiens with 6 samples.

Results

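The mRNAs of the proteasome subunits were examined in HCCC9810 cells, an established human cholangiocarcinoma (CCA) line, after 24 h with 20 μM isolinderalactone (ILL) or with the DMSO vehicle. Subunits were taken from the count table by symbol, as PSMA, PSMB, PSMC or PSMD followed by a number, without PSMB8 and PSMB9, together with PSME1 to PSME4, which gave 41 genes of 19470. Each group held 3 libraries of the same wild-type line, so the measurements describe 1 cell line at 1 dose and 1 time. Nothing in the labels says that replicates came from separate cultures, and the p-values measure the spread between these libraries, which may be technical. A bulk library cannot tell less of an mRNA in each cell from fewer cells that carry it.

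The proteasome degrades proteins that have been tagged with ubiquitin. Its 20S core is a barrel with outer rings of alpha subunits, encoded by PSMA genes, and inner rings of beta subunits, encoded by PSMB genes, and the proteolytic sites lie on beta subunits inside the barrel. The regulatory particle that caps the barrel has a base, in which PSMC subunits form a ring of ATPases that unfolds substrates, and a lid, whose PSMD subunits include the enzyme that removes ubiquitin chains. PSME genes encode activators that can bind the barrel in place of this cap.

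Total counts lay between 34282764 and 37758569 per library, and 13066 genes passed the filter on low counts and were tested with edgeR. The cholangiocyte markers KRT7, KRT19, KRT8, KRT18, EPCAM and SOX9 had at least 1448 counts in every library. Among markers of other cells, the summed level was at most 16.5 CPM (counts scaled to a common library size) for hepatocyte genes, 16.5 CPM for fibroblast genes and 1.88 CPM for endothelial genes in any library. The 4 leukocyte markers summed to 37.5 to 42.4 CPM in controls and 109 to 114 CPM with ILL, nearly all of it from CD68, which encodes a lysosomal protein, while PTPRC had at most 9 counts and CD3E at most 3. Their part in the results was not tested.

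Subunit mRNAs were lower with ILL in most of the complex. Of the 41 genes, PSMA8 and PSMB11, which encode the testis and thymus variants of core subunits, had 0 counts in every library, which allows up to 0.0875 CPM, and the other 39 were tested. At an adjusted p of 0.05, 33 of them were lower with ILL, against 36.9% of all tested genes, and 2 were higher, against 36.2% of all tested genes. In either direction 35 of 39 passed, beside 73.1% of all tested genes. The remaining 4 were PSMB7, PSMB10, PSMD7 and PSMD9. The median log2 fold change of the 39 genes was -0.45, which corresponds to a level 27% lower after TMM scaling, while that of all tested genes was -0.00117. Such scaling sets genes against each other and does not give the amount of mRNA per cell. Of all tested genes, 27.6% had a log2 fold change at or below this subunit median. The median of all genes called lower was -0.67. With counts scaled by library size only, 34 subunits were lower and 0 higher, beside 9570 of 13066 tested genes called in either direction.

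The decrease was moderate and spread over the complex. Only PSMD2 passed the study's cutoff of a fold change under 0.5, which 11.4% of all tested genes passed, and 0 subunits passed a fold change above 2, which 12.5% of all tested genes passed. All ILL libraries lay below all control libraries in 33 subunits, against 38% of all tested genes, and above them in 2 subunits, against 37.5% of all tested genes. Together the 41 genes took 0.731%, 0.73% and 0.734% of all counts in the control libraries, replicates 1 to 3, and 0.523%, 0.5% and 0.522% in the ILL libraries.

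**Figure D1:**
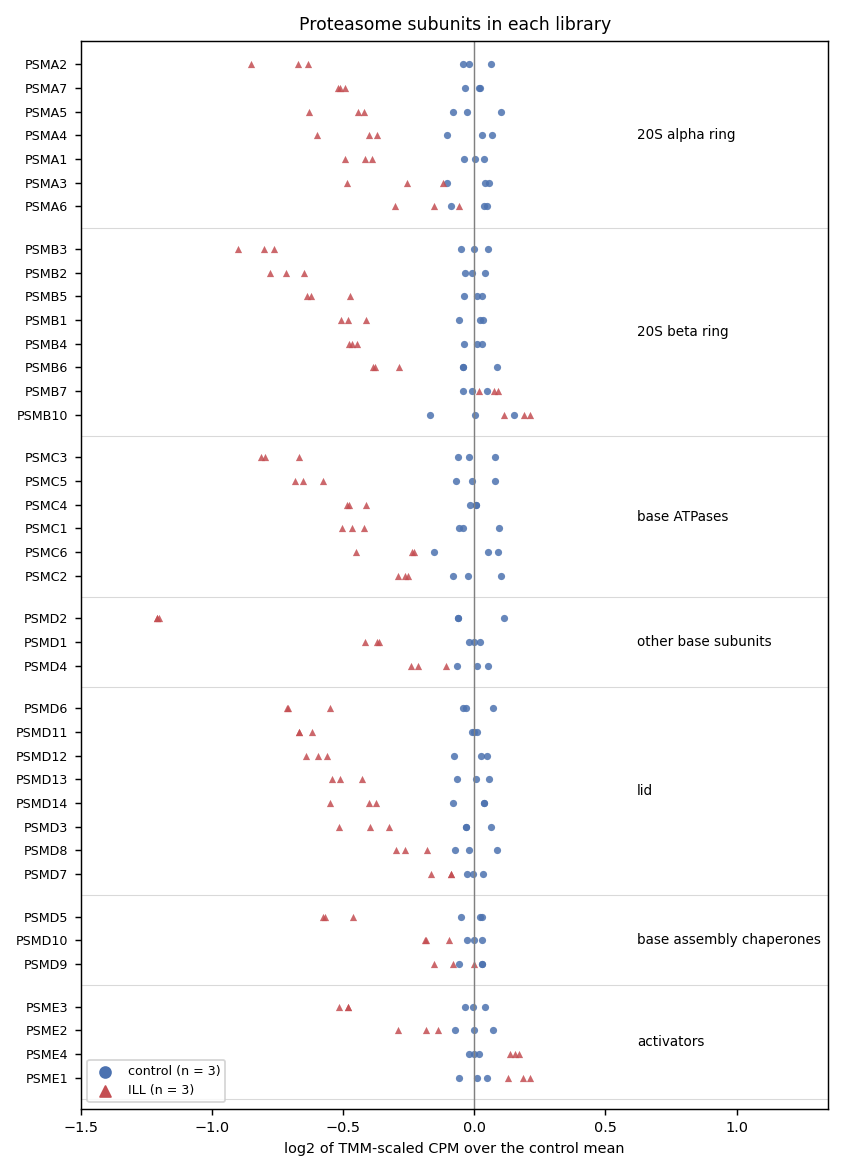
Each row is 1 of the 39 tested subunits, and points show log2 of its TMM-scaled CPM in each library over the mean of the 3 control libraries, with circles for control and triangles for ILL. Triangles lie left of every circle in 33 rows and right of every circle in the rows of PSME1 and PSME4, and PSMD2 lies farthest left.

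In the alpha ring, which gates the entry to the barrel, 7 of 7 tested genes were lower with ILL, beside 36.9% of all tested genes. PSMA2, on chromosome 7 from 42916861 to 42932174, changed most. Its level in control libraries, in the order of their replicate numbers, was 173, 183 and 170 CPM, and in ILL libraries 110, 97.2 and 113 CPM, without overlap. edgeR gave a log2 fold change of -0.71 with a standard error of 0.06 (adjusted p = 9.5e-11). PSMA6 changed least, from 333, 336 and 305 CPM to 292, 263 and 312 CPM, so that the highest ILL library exceeded the lowest control. Its log2 fold change of -0.17 passed the test (adjusted p = 0.0128 by edgeR), but not without control replicate 1 (-0.15, adjusted p = 0.0526), control replicate 2 (-0.15, adjusted p = 0.0709) or ILL replicate 2 (-0.10, adjusted p = 0.0864). GENCODE release 29 names 4 pseudogene copies of PSMA6, 3 of PSMA2 and 1 of PSMA3. How the authors treated reads shared with such copies is not given in the sources used here. The other 5 genes of this ring, PSMA1, PSMA3, PSMA4, PSMA5 and PSMA7, had log2 fold changes between -0.51 in PSMA7 and -0.28 in PSMA3.

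The beta ring was less uniform, with 6 of 8 tested genes lower with ILL, beside 36.9% of all tested genes. PSMB3, a structural subunit on chromosome 17 from 38752741 to 38764225, had 236, 244 and 253 CPM in controls and 144, 131 and 140 CPM with ILL. It fell to 0.567 of the control level, or by 0.82 ± 0.05 (SE) on the log2 scale (adjusted p = 8.0e-13 by edgeR). PSMB2 was next at -0.72, and the structural subunits PSMB4 and PSMB1 had values of -0.46 and -0.47.

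The 3 constitutive catalytic subunits differed from each other. PSMB5, which carries the chymotrypsin-like activity and is the main site of proteasome inhibitor drugs, was at 262, 250 and 259 CPM in controls and 185, 165 and 167 CPM with ILL. This was a fall by 0.58 ± 0.05 (SE) on the log2 scale (adjusted p = 7.7e-10 by edgeR). PSMB6, with the caspase-like activity, went from 106, 106 and 116 CPM to 89.5, 84.1 and 83.7 CPM, a log2 fold change of -0.35 (adjusted p = 8.5e-06 by edgeR). For both genes every ILL library was below every control.

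PSMB7, with the trypsin-like activity, did not pass the test. It was at 165, 169 and 176 CPM in controls and 179, 172 and 181 CPM with ILL, and the groups overlapped. The log2 fold change was 0.06, with a 95% interval from -0.04 to 0.16 (adjusted p = 0.296 by edgeR), and its sign turned to -0.01 with library size scaling and in 3 limma fits of log2 FPKM. PSMB10, the inducible subunit that takes the place of PSMB7 in immunoproteasomes, was at 26.6, 23.6 and 29.5 CPM in controls and 30.3, 30.8 and 28.7 CPM with ILL, also with overlap. Its log2 fold change of 0.17 did not pass (adjusted p = 0.0719 by edgeR), except without control replicate 3 (0.25, adjusted p = 0.0163).

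PSMB8 and PSMB9, the inducible counterparts of PSMB5 and PSMB6 that the symbol rule leaves out, were both higher with ILL. PSMB8 rose from 175, 172 and 182 CPM to 278, 286 and 271 CPM (log2 fold change 0.66, adjusted p = 1.9e-11 by edgeR), and PSMB9 from 28.3, 30.8 and 32.1 CPM to 58.8, 55.8 and 55.2 CPM (0.90, adjusted p = 2.4e-11 by edgeR). GENCODE annotates these neighbours on chromosome 6 as overlapping on opposite strands, and whether reads were counted by strand is not given in the sources used here.

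Ratios of counts within a library do not depend on how libraries are scaled. The ratio of PSMB8 to PSMB5 was 0.67, 0.689 and 0.704 in controls and 1.5, 1.73 and 1.62 with ILL, a 2.35-fold difference. For PSMB9 to PSMB6 it was 0.266, 0.291 and 0.277 in controls and 0.657, 0.663 and 0.66 with ILL, a 2.37-fold difference. In both pairs the groups were apart, and the exact permutation test gave p = 0.1, the smallest that 3 libraries against 3 allow. The ratio of PSMB10 to PSMB7 was 0.156 ± 0.0146 (SD, n = 3) in controls and 0.169 ± 0.0105 (SD, n = 3) with ILL and overlapped (two-sided exact permutation test, p = 0.4). The PSMB8 and PSMB9 ratios were chosen after their values were seen.

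**Figure D2:**
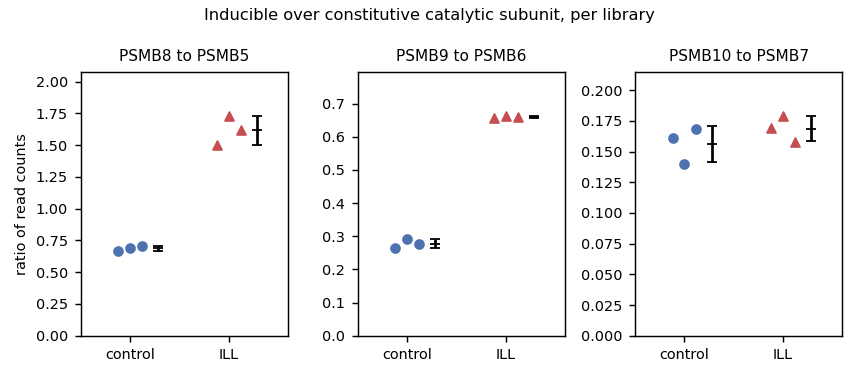
Ratio of read counts of the inducible to the constitutive catalytic subunit in each library, with bars for the mean and SD of 3 libraries, a linear axis from 0 and a separate scale in each panel. PSMB8 to PSMB5 and PSMB9 to PSMB6 separate control from ILL libraries, while PSMB10 to PSMB7 overlaps at 0.14 to 0.179.

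In the base, 9 of 9 genes were lower with ILL, beside 36.9% of all tested genes, and all 9 had ILL libraries below every control, beside 38% of all tested genes. The 6 ATPases ranged from -0.76 to -0.27 on the log2 scale. PSMC3, on chromosome 11 from 47418775 to 47426439, went from 180, 175 and 193 CPM to 115, 104 and 105 CPM (-0.76 ± 0.06 (SE) on the log2 scale, adjusted p = 1.3e-11 by edgeR). PSMC2 changed least, from 131, 126 and 143 CPM to 112, 111 and 109 CPM (-0.27, adjusted p = 0.000165 by edgeR). PSMC5, PSMC1, PSMC4 and PSMC6 lay between them, and PSMC1, at -0.46, has 13 annotated pseudogene copies.

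PSMD2, a large scaffold subunit of the base that binds ubiquitin-like domains, showed the largest change of the 39 genes. It lies on chromosome 3 from 184299241 to 184309050. Its level was 488, 488 and 551 CPM in controls and 221, 220 and 220 CPM with ILL. edgeR put the log2 fold change at -1.21 with a standard error of 0.05 (adjusted p = 4.0e-16), and it stayed between -1.24 and -1.15 when any 1 library was left out. PSMD1, the other large scaffold of the base, had a log2 fold change of -0.38. The count ratio of PSMD2 to PSMD1 was 2.91, 2.94 and 3.22 in controls and 1.75, 1.69 and 1.67 with ILL, apart at the smallest p that the exact permutation test allows (p = 0.1), and this pair was chosen after its values were seen. PSMD4, a ubiquitin receptor, went from 138, 131 and 142 CPM to 127, 118 and 116 CPM. Its log2 fold change was -0.19 (adjusted p = 0.00365 by edgeR), the smallest in the base.

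The lid had 7 of 8 genes lower with ILL, beside 36.9% of all tested genes, and in all 8 the ILL libraries lay below the controls, beside 38% of all tested genes. PSMD6 went from 84.2, 90.5 and 83.4 CPM to 58.8, 52.4 and 52.6 CPM (-0.65 ± 0.06 (SE) on the log2 scale, adjusted p = 1.6e-09 by edgeR), and PSMD11 had the same rounded value. PSMD14, the metalloprotease that cuts ubiquitin chains from substrates, went from 152, 152 and 140 CPM to 114, 112 and 101 CPM, a log2 fold change of -0.45 (adjusted p = 2.5e-07 by edgeR). Its inactive partner PSMD7 was at 122, 120 and 125 CPM in controls and 115, 115 and 109 CPM with ILL. The PSMD7 value of -0.11 did not pass (adjusted p = 0.0724 by edgeR), but passed with library size scaling (-0.18, adjusted p = 0.00447) and in 3 limma fits of log2 FPKM (-0.18 in each). PSMD12, PSMD13, PSMD3 and PSMD8 had values of -0.60, -0.49, -0.41 and -0.25.

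Core and regulatory particle were close in size of change. The median log2 fold change was -0.46 over the 15 tested core genes and -0.46 over the 17 genes of base and lid. The difference of these medians was -0.01, and it lay between -0.02 and 0.03 without any 1 library. Within a group, the core median minus the base and lid median of log2 CPM had an SD of 0.0917 between libraries. That SD describes levels and is not an error of the difference in fold change. The core had 13 genes lower and base and lid 16, beside the 36.9% given above. As separate groups, the medians were -0.45 in the alpha ring, -0.47 in the beta ring, -0.46 in the ATPases, -0.38 in the other base subunits and -0.47 in the lid. Spread within a group was therefore wider than the distance between these medians, from -0.82 to 0.17 in the core and from -1.21 to -0.11 in base and lid.

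**Figure D3:**
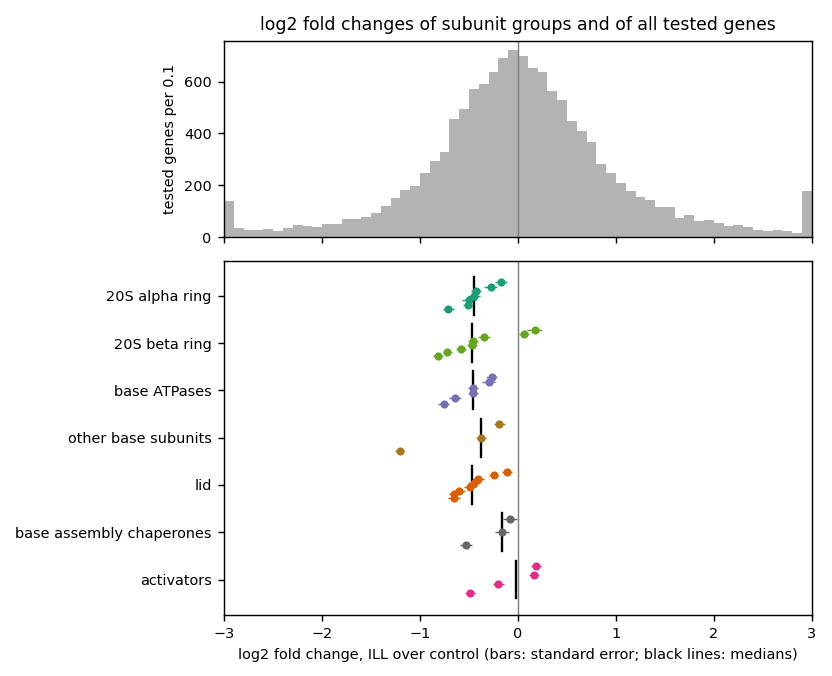
The upper panel counts the 13066 tested genes per 0.1 of log2 fold change, with genes beyond 3 in either direction added to the end bars, and the lower panel shows each tested subunit with its standard error and the median of its group as a black line. Core, base and lid medians lie between -0.47 and -0.38, and the activators lie on both sides of 0.

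Outside the core, base and lid, the median log2 fold change was -0.16 in the base assembly chaperones and -0.02 in the activators. Of the 3 chaperones that help assemble the base, PSMD5 went from 61.5, 58.4 and 61.8 CPM to 40.6, 44 and 40.8 CPM (log2 fold change -0.53, adjusted p = 7.0e-08 by edgeR). PSMD9 was at 35.3, 33.2 and 35.3 CPM in controls and 32.7, 31.1 and 34.6 CPM with ILL, with overlap, and did not pass (-0.08, adjusted p = 0.348 by edgeR). PSMD10, also known as gankyrin, had a value of -0.16 with an adjusted p of 0.0498 by edgeR, which was not reached in 10 of 15 alternatives.

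The activators moved in both directions. PSME1 and PSME2 encode the alternating subunits of the PA28 ring, which is linked to antigen processing, and lie close together on chromosome 14. PSME1 was higher with ILL, from 157, 153 and 146 CPM to 166, 176 and 173 CPM (log2 fold change 0.18, adjusted p = 0.00434 by edgeR), though not with library size scaling (0.11, adjusted p = 0.0694) or in 3 limma fits of log2 FPKM (0.11, adjusted p from 0.0531 to 0.0616). PSME2 was lower, from 197, 187 and 178 CPM to 153, 170 and 165 CPM (-0.20, adjusted p = 0.00251 by edgeR). Neither gene overlapped between groups. The ratio of PSME1 to PSME2 was 0.812 ± 0.0132 (SD, n = 3) in controls and 1.05 ± 0.0255 (SD, n = 3) with ILL (exact permutation test, p = 0.1, the smallest possible, for a pair chosen after its values were seen).

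PSME3, the nuclear PA28 subunit, fell from 184, 194 and 188 CPM to 132, 135 and 135 CPM (log2 fold change -0.49, adjusted p = 5.6e-09 by edgeR). PSME4, which encodes the large single-chain activator PA200, was at 153, 149 and 151 CPM in controls and 170, 168 and 166 CPM with ILL. Its value of 0.16 passed the test (adjusted p = 0.00762 by edgeR) but not with library size scaling (0.09, adjusted p = 0.12) or in 2 of 3 limma fits of log2 FPKM (adjusted p = 0.0631 and 0.126). PSME1 and PSME4 were the 2 subunits called higher.

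Levels per length were compared with the authors' FPKM values (fragment counts scaled to gene length and library size). The lengths behind them, recovered from the 2 tables, ran from 762 to 7194 bases, so that the order of levels depends on the gene models. PSMA7 was highest, at 487 ± 9.35 FPKM (SD, n = 3) in controls and 327 ± 5.24 FPKM (SD, n = 3) with ILL, and PSMD9 was lowest, at 13 ± 0.436 FPKM and 11.8 ± 0.654 FPKM (SD, n = 3). Within the alpha ring, whose subunits are used in equal numbers, the highest mean was 18.4 times the lowest in controls and 18.2 times with ILL. The ATPases were more even, with 3.3 times from PSMC1 to PSMC3 in controls and 2.68 times with ILL. PSMB10 and PSMB2, the lowest of the beta genes, stood at 27.9 ± 2.99 and 61.4 ± 1.48 FPKM (SD, n = 3) in controls but at 29.9 ± 1.1 and 35.6 ± 1.72 FPKM (SD, n = 3) with ILL. Across the 39 genes, log2 mean FPKM with ILL and in controls had a Pearson's r of 0.975, as a description over genes measured in the same libraries. The log2 fold change had an r of -0.208 with the log2 control level, which shares those control libraries.

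**Figure D4:**
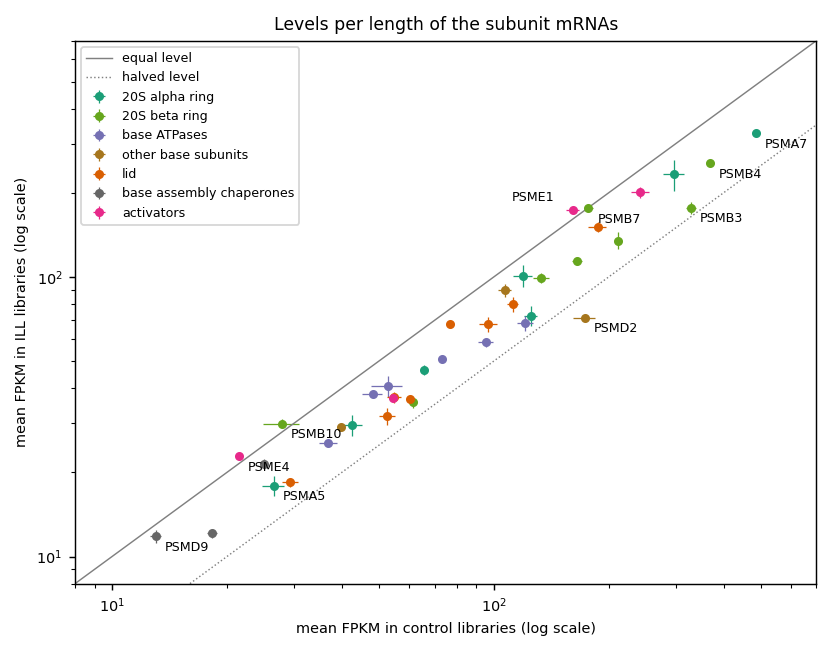
Mean FPKM of each tested subunit in the 3 ILL libraries against that in the 3 control libraries, both on log axes, with bars for the SD. Most points lie between the line of equal level and the dotted line of a halved level, PSMD2 lies below the dotted line, and PSME1, PSME4 and PSMB10 lie above the line of equal level.

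The genes were dispersed over the genome. The 41 genes lie on 16 chromosomes of GRCh38.p14, with 8 on chromosome 14 and 7 on chromosome 17. In GENCODE release 29, 12 of them have pseudogene copies named after them, and 15 overlap another protein-coding gene.

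Promoters were read from RefSeq for GRCh38.p14, as the 250 bases before and 50 after each annotated start, and 36 of the 41 genes matched. PSMA7, PSMB1, PSMB6, PSMB7 and PSMD4 did not. NFE2L1 and NFE2L2, transcription factors that act on proteasome and antioxidant genes, bind with small MAF partners to the antioxidant response element, whose core was searched as TGACNNNGC on both strands. It was present in 12 of 36 subunit promoters (33.3%) and in 16.1% of the promoters of 27305 genes. Those 27305 genes were not limited to the 13066 genes tested here, so expressed genes alone may give another share. CCAAT, the NF-Y motif, was in 50% of subunit promoters and 39.7% of all, and CCGGAAG, an ETS motif, in 36.1% and 12.2%. None of the 14 matches of the first motif in these windows overlapped a match of the other motifs. Tested subunits with the antioxidant core had a median log2 fold change of -0.43 (12 genes), and those without it -0.46 (22 genes). For the NF-Y motif the medians were -0.49 with it (17 genes) and -0.43 without it (17 genes). For the ETS motif they were -0.28 with it (12 genes) and -0.48 without it (22 genes). These differences were not tested. PSME1 and PSME4, the 2 subunits called higher, held the antioxidant core, as did subunits called lower such as PSMB3 and PSMD3. The following stretches show the core in capitals, with 10 bases on each side, in 4 subunits lower with ILL and in the 2 that were higher.
PSMB3, chr17:38752627-38752655, plus strand: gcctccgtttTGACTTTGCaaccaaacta
PSMD3, chr17:39980760-39980788, plus strand: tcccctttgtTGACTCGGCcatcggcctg
PSMD12, chr17:67366724-67366752, minus strand: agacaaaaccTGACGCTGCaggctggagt
PSMD5, chr9:120843038-120843066, minus strand: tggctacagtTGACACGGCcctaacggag
PSME1, chr14:24136098-24136126, plus strand: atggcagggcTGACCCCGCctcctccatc
PSME4, chr2:53971009-53971037, minus strand, core read on the opposite strand: cccggcggctGCAGCGTCAccagcagagc
They begin the core 104, 37, 165, 134, 86 and 34 bases before the annotated start, in this order. A match is a description of letters and not evidence of binding.

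Around the subunits, the genes that assemble, regulate and supply the proteasome were described with lists, of which 42 of 42 genes were tested. In all, 17 were lower, 14 higher and 11 not called, beside 36.9% lower and 36.2% higher among all tested genes. The 6 assembly chaperones of the core and base outside the symbol rule were all lower, with a median of -0.65. POMP changed least, at -0.24, and was named after its values were seen. Its groups overlapped, at 143, 140 and 124 CPM in controls and 121, 98.1 and 125 CPM with ILL. PSMG1, which pairs with PSMG2 to build the alpha ring, went from 46.8, 40.2 and 40.6 CPM to 15, 13.9 and 15.9 CPM (-1.51 ± 0.08 (SE) on the log2 scale, adjusted p = 4.5e-14 by edgeR), a larger fold change than that of any subunit. PAAF1 and PSMG4 had values of -0.70 and -0.65.

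Of 10 proteins that bind the proteasome, 4 were lower and 3 higher, shares near those of all tested genes (36.9% and 36.2%). UCHL5, a deubiquitinase of the regulatory particle, fell from 90.7, 96.5 and 83.8 CPM to 32.6, 30.5 and 34.1 CPM (log2 fold change -1.48, adjusted p = 9.7e-16 by edgeR). ADRM1, the ubiquitin receptor that recruits UCHL5, was at -0.31. AKIRIN2, which takes part in the nuclear import of proteasomes, was higher, at 0.38.

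Of 10 transcription factors and proteins that process them, 6 were higher, 1 was lower and 3 were not called, beside 36.2% higher and 36.9% lower among all tested genes. NFE2L1, known for raising proteasome genes when proteasome activity is short, went from 90.9, 89.6 and 98.7 CPM to 218, 224 and 221 CPM (1.25 ± 0.05 (SE) on the log2 scale, adjusted p = 2.8e-16 by edgeR). NFE2L2, or NRF2, rose from 151, 149 and 140 CPM to 265, 271 and 272 CPM (0.88, adjusted p = 9.9e-14 by edgeR). The small MAF partners MAFK and MAFG had values of 1.65 and 1.31. BACH1 was also higher, from 21.4, 21.7 and 22 CPM to 46.2, 46.2 and 39.5 CPM (1.02, adjusted p = 1.8e-11 by edgeR). MAFF was higher at 0.82, and BACH1 and MAFF were named after their values were seen. The lower gene was DDI2, a protease that cleaves NFE2L1 into its active form, at -0.30 (adjusted p = 0.0036 by edgeR), named after its value was seen. NGLY1, which removes sugars from NFE2L1, did not pass (-0.09, adjusted p = 0.369 by edgeR), nor did NFE2L3, a relative of NFE2L1 (-0.0033, adjusted p = 0.969 by edgeR), or KEAP1, which directs the degradation of NFE2L2 (0.13, adjusted p = 0.0593 by edgeR). These uncalled genes were also named with their values known.

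Among ubiquitin and E1 genes, RPS27A, which encodes ubiquitin fused to a ribosomal protein, went from 939, 935 and 884 CPM to 700, 645 and 757 CPM (log2 fold change -0.39, adjusted p = 5.1e-07 by edgeR). UBA6, an E1 enzyme that activates ubiquitin, was lower at -0.32 (adjusted p = 5.0e-05 by edgeR). The other listed E1 gene, UBA1, did not pass (-0.09, adjusted p = 0.138 by edgeR), overlapped between groups and was named with its values known. The polyubiquitin gene UBB overlapped between groups, at 385, 363 and 424 CPM in controls and 365, 396 and 407 CPM with ILL (adjusted p = 0.959 by edgeR), and was named after its values were seen. Among 10 shuttle factors and segregase genes, 4 were lower and 3 higher, again near the 36.9% and 36.2% of all tested genes. ZFAND5, a zinc finger protein that binds and stimulates the proteasome, rose from 31, 28 and 30.6 CPM to 61.1, 60.9 and 57.5 CPM (fold change 2, adjusted p = 1.9e-12 by edgeR). ZFAND2A, a stress-induced proteasome-binding protein, was higher at 0.80, and the shuttle factor UBQLN4 was lower at -0.45.

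**Figure D5:**
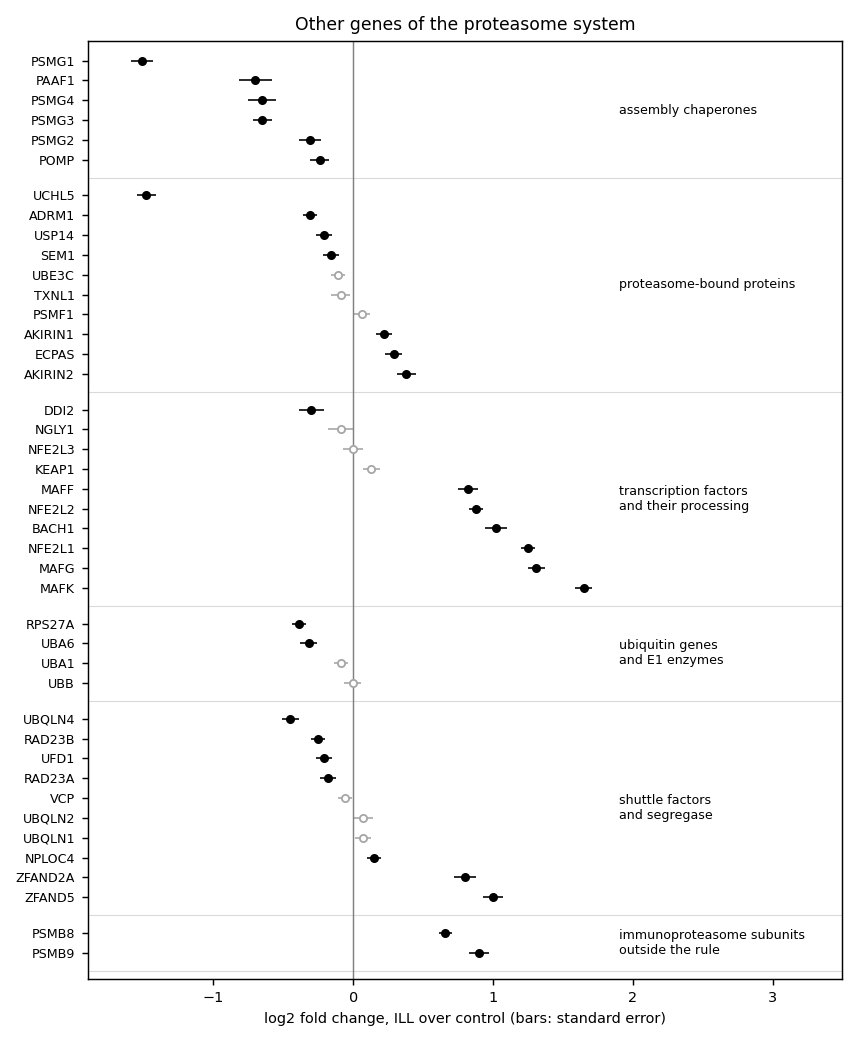
log2 fold change of ILL over control with its standard error for the 42 genes of the lists, where filled points passed an adjusted p of 0.05 and open points did not. All assembly chaperones lie left of 0, while NFE2L1, NFE2L2, BACH1 and the small MAF genes lie right of it at 0.82 or more.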

How the data were processed

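RNA of 6 HCCC9810 libraries, 3 with ILL and 3 with vehicle, was sequenced from mRNA-seq kits per the labels. Deposited by the authors were unnormalized counts for each gene symbol and a table of FPKM, with 1 column per library and no pooling. The submitters' processing notes name GRCh38 and DESeq2, and the aligner and counting program are not given in the sources used here. From the counts, edgeR 4.0.16 (R 4.3.3) was run with filterByExpr, TMM scaling and the quasi-likelihood test over 13066 genes, with Benjamini-Hochberg adjustment and a threshold of 0.05. The DEG cutoff was a fold change above 2 or under 0.5. The biological coefficient of variation was 0.0717, and tested subunits had 831 to 19473 counts in a library. Library pairs within a group differed beyond counting noise (chi-square per degree of freedom 5.15 to 11.8).

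Symbols that continue after the number (2 genes, such as PSMC3IP) were left out. Base was PSMC1 to PSMC6 with PSMD1, PSMD2 and PSMD4. Values in every library are given for the highest and lowest fold change of each group, the catalytic subunits, PSMD2, PSMD4, PSMD14 and the activators, and up to 3 genes per related list are named by largest change. The members and lists were chosen with earlier results of these data known. DESeq2 1.42.0 and limma 3.58.1 on log2 of FPKM plus 1 or 0.1 were among the alternatives. The fits were tested on simulated counts in which 12769 of 12969 genes were unchanged. There edgeR called 0.102% of the unchanged genes and 96% to 100% of each set of 50 changed genes. In the data 73.1% of tested genes were called, so the simulation cannot check the scaling under so wide a response. Some genes of the lists are not reported here, and counts over the lists leave them out. Results of other experiments of the study were not analysed here.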

Additional observations from a re-analysis of the deposited data

How the results depend on the processing

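Of the 39 tested subunits, 32 had the same sign and the same call in each of 15 alternatives. The 17 related genes of the naming rule did so too. Most of those were chosen because they passed in the main fit with the largest changes, so their stability was largely fixed in advance. The rest of the 42 related genes were not followed gene by gene. The count of subunits called, 35, was 33 to 35 without any 1 library, 34 with DESeq2's size factors and 34 with library size only. Over all tested genes, 9547 of 13066 were called in the main fit, 9537 with DESeq2's size factors and 9570 with library size only. Without any 1 library, the fewest were 9131 of 13272 (control replicate 2 left out) and the most 9319 of 13271 (control replicate 3 left out). PSMD2 was the only DEG, and each alternative gave a count of 1. The median of all subunits, -0.45, was -0.52 with library size only, -0.51 and -0.52 by limma from FPKM at pseudocounts of 1 and 0.1, and -0.51 when a mean FPKM of at least 1 was also required. That of base and lid, -0.46, was -0.53, -0.51, -0.53 and -0.51 in the same order. Library size scaling moves the median of all genes to -0.0702. PSMB7, at 0.06, was -0.01 with library size only and in the 3 limma fits. The log2 change in the subunits' share was -0.51 in counts and -0.43 in FPKM, and the cause was not tested. The core minus base and lid difference lay between -0.02 and 0.03 without any 1 library.

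Libraries with the same replicate number did not deviate together (r between -0.0218 and 0.0107). These values cannot show how the cultures were handled, so whether the numbers pair the samples was not settled. With the replicate number as a block, 34 subunits and 31 related genes were called, beside 9437 of all 13066 tested genes. The subunit median was -0.45, with 1 DEG among the subunits. The log2 ratio of PSMB10 to PSMB7 was 0.11 (exact permutation of signs within pairs, p = 0.75).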
